A study of Mus musculus with 24 samples.

Results

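The enteric glia genes S100b, Gfap, Erbb3, Gfra3, Cdh19 and Fabp7 were followed through sorted stromal cells of the mouse colon and small intestine. They were found among the deposited gene counts by the Ensembl identifiers that the GENCODE M21 annotation gives these symbols, and all 6 were present among the 54418 gene identifiers. All 6 also passed the filter on low counts, which left 19050 genes for testing. Their levels were highest in CD31- Rspo3- cells of both tissues. In CD31- cells of the small intestine, all 6 were lower in Rspo3+ than in Rspo3- cells, where 14.3% of tested genes were lower. In those of the colon 5 of 6 were lower, where 4.34% of tested genes were lower. Leaving out each library gave 4 to 6 calls in the small intestine and 3 to 6 in the colon.

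Enteric glia are the supporting cells of the enteric nervous system, the network of neurons in the gut wall. They derive from the neural crest, wrap neurons and nerve fibres in the ganglia, and extend through the muscle layers and the mucosa. The 6 genes cover several roles. S100b, which encodes a calcium-binding protein, and Gfap, which encodes an intermediate filament protein of the cytoskeleton, are the usual immunostaining markers of these cells. Erbb3 encodes a neuregulin receptor that signals with the partner receptor ErbB2 and is needed for the neural crest lineage that gives rise to glia. Gfra3 encodes the co-receptor for artemin, a ligand of the GDNF family that signals through Ret. Cdh19 encodes a cadherin, a cell adhesion protein of Schwann cells and their precursors, and Fabp7 encodes the brain-type fatty acid binding protein of glia and their progenitors.

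In the GENCODE M21 annotation of GRCm38, S100b (ENSMUSG00000033208) spans chr10:76253853-76261159 on the plus strand and Gfap (ENSMUSG00000020932) spans chr11:102887336-102900912 on the minus strand. Erbb3 (ENSMUSG00000018166) spans chr10:128567523-128589652 on the minus strand, and Gfra3 (ENSMUSG00000024366) spans chr18:34689898-34720387 on the minus strand. Cdh19 (ENSMUSG00000047216) spans chr1:110888326-110977584 on the minus strand, and Fabp7 (ENSMUSG00000019874) spans chr10:57784881-57788450 on the plus strand. All 6 are annotated as protein-coding.

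The libraries were made from CD45- Epcam- stromal cells of mice 8 to 12 weeks old on a C57Bl6 background that carry an Rspo3 GFP transgene as a reporter of R-spondin 3, a secreted Wnt pathway amplifier. Cells were sorted by tissue, by the endothelial surface protein CD31 and by the reporter. This gave 8 groups of 3 libraries each, namely CD31+ Rspo3+, CD31+ Rspo3-, CD31- Rspo3+ and CD31- Rspo3- cells of the colon and the same 4 populations of the small intestine. The labels do not say whether replicates came from separate animals, so every p-value reflects spread among libraries that may be technical. Numbers 1 to 3 name the libraries of a group and pair nothing between groups.

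The 24 libraries held 8462041 to 29214487 counts each, with a median of 17881736. Rspo3 stood at 139 to 450 counts per 1000000 counts (CPM) in the 12 Rspo3+ libraries and at 11.2 to 24.1 CPM in the 12 Rspo3- libraries. Pecam1, which encodes CD31, stood at 347 to 1486 CPM in the CD31+ libraries and at 8.18 to 44.0 CPM in the CD31- libraries. Epithelial transcripts were present despite the Epcam- gate: the summed level of 14 epithelial markers was 5219 to 9059 CPM in CD31- Rspo3- cells of the small intestine. A pair of colon libraries stood apart. CD31- Rspo3+ library 3 had 197 CPM of Epcam, against 15.3 and 4.198 CPM in the other libraries of its group, and a summed level of 10 immune cell markers of 3927 CPM, against 277 and 154.5 CPM. CD31+ Rspo3- library 3 had a summed level of 8 fibroblast markers of 9582 CPM, against 2161 and 2726 CPM in the other libraries of its group.

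Promoter sequences from RefSeq (GRCm38.p6) were found for 3 of the 6 genes. None was found for Erbb3, Gfra3 or Cdh19. The genes shown were highest in CD31- Rspo3- cells of both tissues, with the colon first for S100b and Gfap and the small intestine first for Fabp7. Each covers 200 bases, from 250 to 51 bases before the RefSeq transcript start, read 5′ to 3′ on the strand of the gene, and overlaps no exon annotated in GENCODE M21. The window of S100b is chr10:76253586-76253785 on the plus strand, that of Gfap is chr11:102897251-102897450 on the minus strand, and that of Fabp7 is chr10:57784673-57784872 on the plus strand. The Gfap window lies within the GENCODE span of the gene, and the RefSeq start of S100b was not found in a GENCODE M21 transcript. Capitals mark matches to TGGGAA, the core of the RBPJ motif, which reads TTCCCA when it lies on the opposite strand.
S100b: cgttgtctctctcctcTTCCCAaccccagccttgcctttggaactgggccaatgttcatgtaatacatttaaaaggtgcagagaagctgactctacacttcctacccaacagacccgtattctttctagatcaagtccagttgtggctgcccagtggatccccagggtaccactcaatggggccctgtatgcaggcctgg
Gfap: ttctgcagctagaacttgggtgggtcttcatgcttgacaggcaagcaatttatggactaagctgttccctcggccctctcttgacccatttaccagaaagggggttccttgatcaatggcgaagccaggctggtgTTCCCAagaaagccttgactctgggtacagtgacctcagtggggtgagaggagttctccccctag
Fabp7: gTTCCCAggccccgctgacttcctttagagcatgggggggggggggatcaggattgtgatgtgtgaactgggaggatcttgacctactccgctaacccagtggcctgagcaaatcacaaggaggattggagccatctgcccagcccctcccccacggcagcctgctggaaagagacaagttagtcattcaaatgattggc
RBPJ is the DNA-binding partner of Notch receptors. TGGGAA was searched on both strands and found in 3 of 3 windows, each time on the strand opposite to the gene, at -234 to -229 in S100b, -115 to -110 in Gfap and -249 to -244 in Fabp7, counted from the start. Among 32851 promoter windows of the same length, 17.9% held it. The SOX core, searched as ACAAAG or ACAATG on both strands, was found in 0 of 3 windows and in 21.2% of all windows. Such matches describe letters and not binding sites.

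S100b was highest in CD31- Rspo3- cells of the colon, with 20.1, 18.1 and 14.3 CPM in the 3 libraries, and next in the same cells of the small intestine, with 11.7, 10.5 and 10.2 CPM. The libraries of these groups did not overlap with each other or with any other group. The remaining 18 libraries lay between 0.237 and 4.01 CPM, and neighbours in their order overlapped. How many of all tested genes separate groups without overlap was not counted, here or for the other genes below. In the edgeR test between tissues given further on, Erbb3 was the only one of the 6 genes that passed in these cells. CPM values here are scaled by the TMM normalization factors of edgeR.

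Gfap followed the same order at the top. It stood at 41.1, 37.9 and 15.5 CPM in CD31- Rspo3- cells of the colon and at 9.83, 14.5 and 8.49 CPM in those of the small intestine, and the groups did not overlap. Elsewhere it reached at most 6.01 CPM, in colon CD31- Rspo3+ library 3. In small intestinal CD31+ Rspo3- library 3 it had no count, which allows a level of up to 0.2585 CPM when 3 counts are taken as the limit. Such limits cover counting error only.

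Erbb3 had the reverse order of tissues. It stood at 35.6, 27.2 and 18.7 CPM in CD31- Rspo3- cells of the colon, against 106.9, 79.2 and 191 CPM in those of the small intestine. All 3 small intestinal libraries lay above all 3 colon libraries. The remaining groups had 0.590 to 12.6 CPM and overlapped with their neighbours in the order.

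Gfra3 stood at 21.6, 10.4 and 16.7 CPM in CD31- Rspo3- cells of the colon and at 8.03, 6.45 and 5.03 CPM in those of the small intestine, without overlap. It was barely counted in CD31- Rspo3+ cells of the small intestine, where 0.121, 0.107 and 0.243 CPM rested on 10 counts over 3 libraries. Colon CD31+ Rspo3+ library 1 and small intestinal CD31+ Rspo3- library 2 had no Gfra3 count, which allows up to 0.180 and 0.208 CPM.

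Cdh19 stood at 69.5, 46.7 and 23.0 CPM in CD31- Rspo3- cells of the colon and at 26.2, 16.4 and 23.2 CPM in those of the small intestine, and here the tissues overlapped. Its next group was CD31+ Rspo3- cells of the colon, with 3.89, 6.95 and 11.8 CPM. The lowest value was 0.0459 CPM in library 1 of the small intestinal CD31+ Rspo3+ cells.

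Fabp7, like Erbb3, was higher in the small intestinal group. It stood at 5.75, 4.99 and 3.82 CPM in CD31- Rspo3- cells of the colon, against 11.3, 12.3 and 10.97 CPM in those of the small intestine, without overlap. No other library exceeded 2.54 CPM. Fabp7 had no count in colon CD31+ Rspo3+ library 1 or in colon CD31- Rspo3+ library 2, which allows up to 0.180 and 0.197 CPM. It had 11 counts in all over the 3 colon CD31- Rspo3+ libraries.

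**Figure D1:**
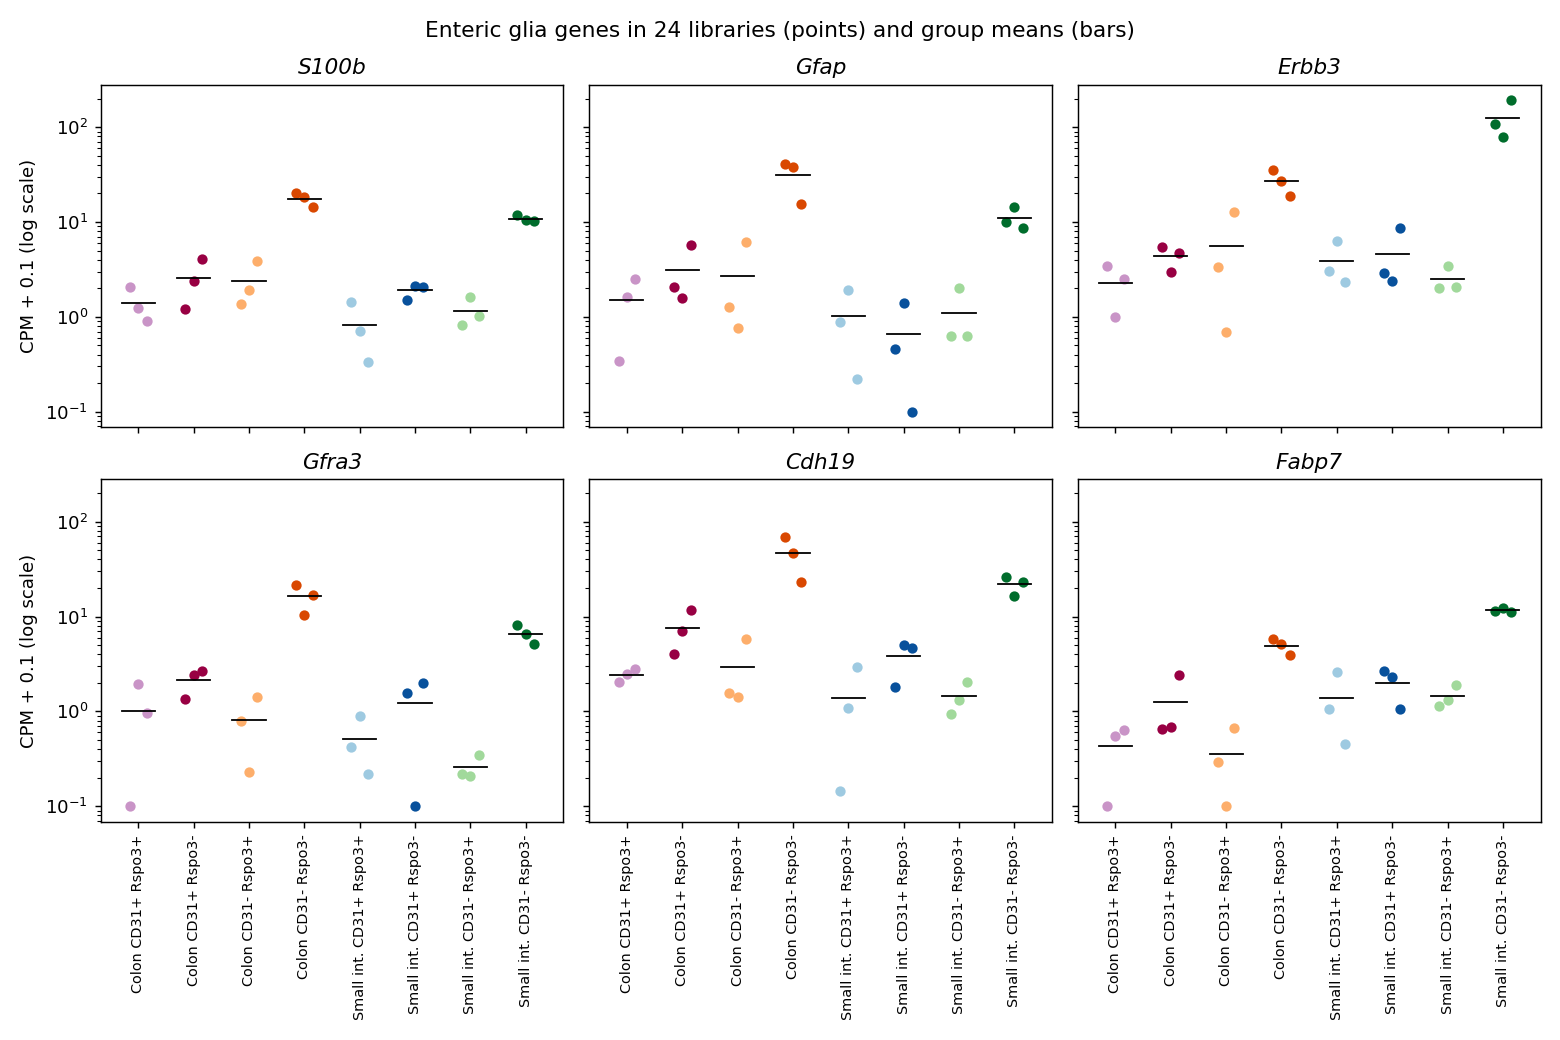
Level of each enteric glia gene in every library (points, CPM + 0.1 on a log scale) with the group mean (bar), for the 8 groups of 3 libraries along the horizontal axis. For all 6 genes the CD31- Rspo3- groups of colon (17.5 CPM for S100b) and small intestine (10.8 CPM for S100b) have the highest means.

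On the length-corrected scale of transcripts per 1000000 transcripts (TPM), which allows genes to be set beside each other, the order of the genes differed between tissues. In CD31- Rspo3- cells of the colon, the deposited values gave Cdh19 20.6 ± 10.6, S100b 20.2 ± 4.05, Gfap 20.02 ± 9.55, Gfra3 13.3 ± 3.92, Fabp7 11.3 ± 2.48 and Erbb3 7.13 ± 2.26 TPM (mean ± SD, n = 3). In the same cells of the small intestine they gave Erbb3 26.6 ± 9.52, Fabp7 22.6 ± 3.13, S100b 10.4 ± 1.54, Cdh19 8.61 ± 1.93, Gfap 5.68 ± 2.01 and Gfra3 4.55 ± 1.38 TPM (mean ± SD, n = 3). Erbb3 thus had the lowest mean of the 6 genes in the colon cells and the highest in the small intestinal cells. In this bulk RNA, the number of glial cells, the RNA per glial cell and RNA from other cell types cannot be told apart behind the level of a gene.

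Among CD31- cells of the small intestine, all 6 genes were lower in Rspo3+ than in Rspo3- cells, in a comparison where 14.3% of the 19050 tested genes were lower and 16.1% higher. Erbb3, the neuregulin receptor gene, averaged 2.39 ± 0.811 CPM in Rspo3+ cells and 125.7 ± 58.3 CPM in Rspo3- cells (SD, n = 3 each), a log2 fold change of -5.72 (SE 0.83, edgeR quasi-likelihood test, adjusted p = 3.54e-05). Gfra3, the artemin co-receptor gene, averaged 0.157 ± 0.0747 CPM in Rspo3+ cells and 6.50 ± 1.502 CPM in Rspo3- cells, a log2 fold change of -5.31 (SE 1.21, edgeR adjusted p = 0.00196). Cdh19 fell by 4.03 on the log2 scale (SE 0.82, edgeR adjusted p = 0.000888), at 0.848, 1.23 and 1.94 CPM in the Rspo3+ libraries. S100b stood at 0.727, 1.502 and 0.923 CPM in Rspo3+ cells and fell by 3.36 (SE 0.56, edgeR adjusted p = 0.000131). The libraries of Rspo3+ and Rspo3- cells did not overlap for any of the 6 genes. The share of all tested genes without such overlap was not counted.

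Gfap and Fabp7 were lower in small intestinal Rspo3+ cells too, with calls that were lost without some libraries. Gfap stood at 0.525, 1.93 and 0.535 CPM in Rspo3+ cells and fell by 3.46 on the log2 scale (SE 1.03, edgeR adjusted p = 0.0147). Without Rspo3+ library 1 or library 3 its adjusted p in edgeR was 0.0666 or 0.0618, in a range of 0.000657 to 0.0666 over 12 alternatives, with a log2 fold change of -4.35 to -2.13. Fabp7 stood at 1.05, 1.23 and 1.80 CPM in Rspo3+ cells and fell by 3.08 (SE 0.88, edgeR adjusted p = 0.0110). Without Rspo3+ library 1 its adjusted p in edgeR was 0.0505, in a range of 9.15e-05 to 0.0505, with a log2 fold change of -3.51 to -2.69 over these alternatives. With the size factors of DESeq2 in place of TMM, the median log2 fold change of all tested genes in this comparison moved by -0.12 from 0.11, which is small beside the changes of the 6 genes.

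Other cell types differed between these small intestinal groups as well, where 14.3% of all tested genes were lower and 16.1% higher in Rspo3+ cells. Of the 14 epithelial markers, 11 were lower and 1 was higher in Rspo3+ cells, with summed levels of 51.1 to 201 CPM in Rspo3+ libraries and 5219 to 9059 CPM in Rspo3- libraries, and none of the 14 was at 0 in either group. Of the 15 enteric neuron markers 6 were lower, with summed levels of 49.8 to 67.2 CPM in Rspo3+ cells and 105 to 190.5 CPM in Rspo3- cells. Leaving out Rspo3+ library 1, 2 or 3 or Rspo3- library 2 left 2 to 3 of these neuron calls. Mitochondrial genes took 0.690% to 1.27% of counts in Rspo3+ libraries and 2.67% to 4.82% in Rspo3- libraries. The part of these differences in the levels of the 6 genes was not tested.

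Among CD31- cells of the colon, 5 of the 6 genes were lower in Rspo3+ cells, where 4.34% of tested genes were lower and 4.8% higher. Gfra3 averaged 0.714 ± 0.599 CPM in Rspo3+ cells and 16.2 ± 5.62 CPM in Rspo3- cells (SD, n = 3 each) and fell by 4.49 on the log2 scale (SE 1.11, edgeR adjusted p = 0.0139). Fabp7 averaged 0.255 ± 0.289 CPM in Rspo3+ cells and 4.85 ± 0.972 CPM in Rspo3- cells and fell by 4.19 (SE 0.99, edgeR adjusted p = 0.00971). Cdh19 stood at 1.46, 1.31 and 5.69 CPM in Rspo3+ cells and fell by 4.02 (SE 0.82, edgeR adjusted p = 0.00339). S100b stood at 1.27, 1.84 and 3.79 CPM in Rspo3+ cells and fell by 2.92 (SE 0.54, edgeR adjusted p = 0.00169). Gfap stood at 1.17, 0.656 and 6.01 CPM in Rspo3+ cells and fell by 3.58 (SE 1.02, edgeR adjusted p = 0.0320). As in the small intestine, Rspo3+ and Rspo3- libraries did not overlap for any of the 6 genes, and the share over all tested genes was not counted.

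Erbb3 did not pass in the colon. It stood at 3.22, 0.590 and 12.6 CPM in Rspo3+ cells, against 35.6, 27.2 and 18.7 CPM in Rspo3- cells, a log2 fold change of -2.30 (SE 0.72, edgeR adjusted p = 0.0505). Its highest Rspo3+ value belonged to library 3, which had the highest level of its group for each of the 6 genes, for Epcam and for the summed immune markers. Without that library the log2 fold change of Erbb3 was -3.90 and its edgeR adjusted p was 0.00189, in a range of 0.000521 to 0.212 over 13 alternatives, 6 of which passed. The epithelial markers had summed levels of 43.6 to 2185 CPM in colon Rspo3+ cells and 1467 to 5587 CPM in colon Rspo3- cells. Of the 14, 1 was lower over all libraries, where 4.34% of all tested genes were lower and 4.8% higher. Leaving out Rspo3+ library 3 gave 9, leaving out Rspo3- library 2 gave 2, and leaving out Rspo3- library 1 or either other Rspo3+ library gave 0. Olfm4 was the only one at 0 in every library of one of these groups, the Rspo3- cells. Of the 10 immune markers, 8 were higher over all libraries, 0 without Rspo3+ library 3, and 2, 1 and 5 without Rspo3- library 1, 2 and 3. The part of these transcripts in the Erbb3 level was not tested.

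Leaving out other libraries changed calls of single genes in the colon, and 3 of 6 passed without Rspo3+ library 1 or 2. The call of Gfap was lost, with an edgeR adjusted p of 0.0770 to 0.130, without Rspo3+ library 1 or 2 or Rspo3- library 1 or 2, and its range over 13 alternatives was 3.76e-05 to 0.130. That of Gfra3 was lost without Rspo3+ library 1 or 2, at 0.0600 and 0.0614, in a range of 2.32e-06 to 0.0614. S100b and Cdh19 passed in all 13 alternatives, with adjusted p of at most 0.0171 for S100b and 0.0257 for Cdh19. Of the 15 neuron markers 3 were lower, where 4.34% of all tested genes were lower, and 1 without Rspo3- library 2 or 3.

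Among CD31+ cells, the endothelial gate, no library of either reporter sign reached the CD31- Rspo3- libraries of its tissue for any of the 6 genes. How many of all tested genes share this was not counted. In the colon 0 of 6 passed, where 13.6% of tested genes were lower and 9.52% higher in Rspo3+ cells, and at an unadjusted p under 0.05 the count was 1, Cdh19 (log2 fold change -1.69, SE 0.75). In the small intestine 0 of 6 passed, where 10.8% were lower and 9.23% higher, and at an unadjusted p under 0.05 the count was 1, S100b (log2 fold change -1.22, SE 0.55). Limma voom, limma on the deposited log2(TPM + 1) values and DESeq2 also gave 0 of 6 in both tissues. With only the compared libraries, edgeR called 1 of 6 in the colon, Cdh19. The summed level of the 6 genes in the colon was 7.46 to 9.75 CPM in CD31+ Rspo3+ cells and 14.1 to 30.9 CPM in CD31+ Rspo3- cells. The small intestinal sum was 5.93 to 13 CPM in CD31+ Rspo3+ cells and 10.3 to 17.8 CPM in CD31+ Rspo3- cells. The SE of these log2 fold changes was 0.53 to 1.08. In the small intestine 1 gene passed without CD31+ Rspo3+ library 1 or library 3.

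**Figure D2:**
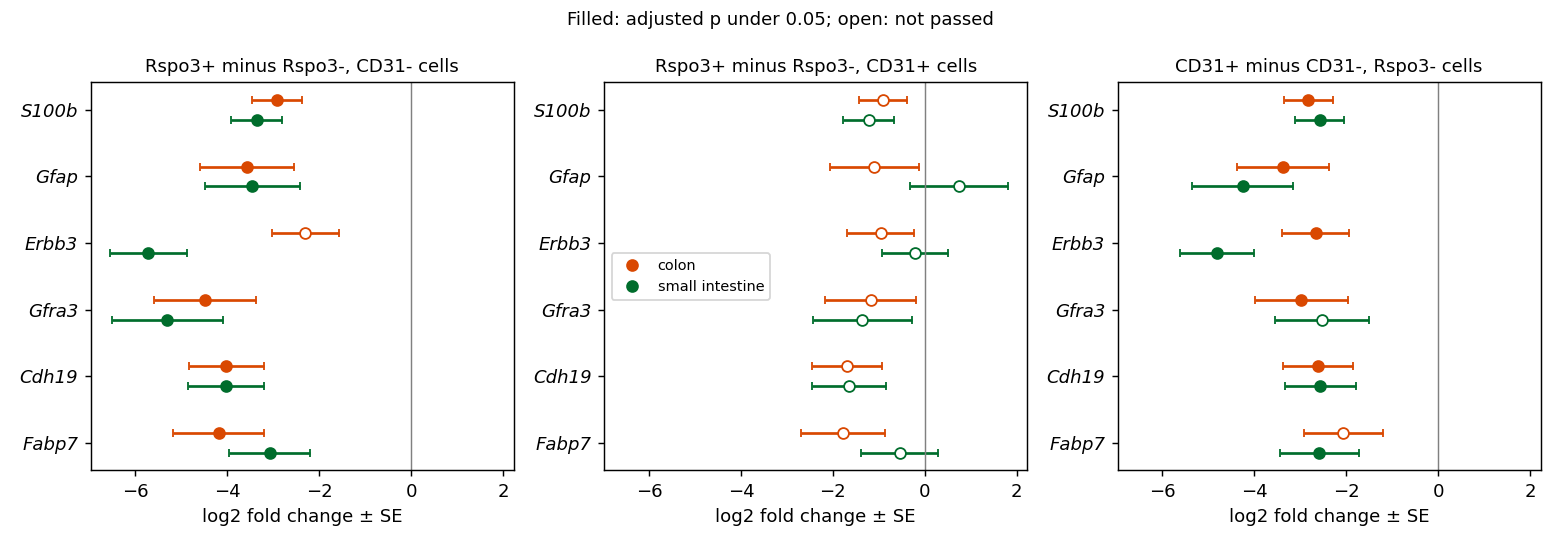
Log2 fold change with its SE for each gene (rows) in colon and small intestine, for Rspo3+ minus Rspo3- among CD31- cells (left), the same among CD31+ cells (middle) and CD31+ minus CD31- among Rspo3- cells (right); filled points have an edgeR adjusted p under 0.05. Erbb3 lies at -5.72 in CD31- cells of the small intestine, and at -2.30 as an open point in those of the colon.

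The comparison by CD31 gave a similar picture within Rspo3- cells. In the colon, 5 of 6 genes were lower in CD31+ cells, where 16.4% of tested genes were lower and 16.1% higher. The log2 fold changes were -2.83 for S100b (SE 0.54, edgeR adjusted p = 0.000449), -2.67 for Erbb3 (SE 0.73, adjusted p = 0.00825), -2.62 for Cdh19 (SE 0.76, adjusted p = 0.0124), -3.38 for Gfap (SE 1.01, adjusted p = 0.0145) and -2.98 for Gfra3 (SE 1.02, adjusted p = 0.0297). Fabp7 did not pass, at a log2 fold change of -2.06 (SE 0.85, edgeR adjusted p = 0.0695), and it stood at 0.549, 0.579 and 2.33 CPM in CD31+ cells. Its highest value was in library 3, which stood apart, and without that library its adjusted p was 0.0222 in a range of 0.00246 to 0.217. S100b and Erbb3 passed in all 13 alternatives. The call of Gfap was lost without CD31+ library 1 or 2, at 0.0669 and 0.0677, and that of Cdh19 without CD31+ library 1 or CD31- library 1, at 0.0655 and 0.0527. That of Gfra3 was lost without CD31+ library 1, 2 or 3 or CD31- library 1 or 3, at 0.0533 to 0.112. The count was 2 without CD31+ library 1, and 3 without CD31+ library 2 or CD31- library 1.

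In the small intestine, 5 of 6 genes were lower in CD31+ Rspo3- cells, where 21.6% of tested genes were lower and 20.1% higher. Erbb3 fell by 4.81 on the log2 scale (SE 0.80, edgeR adjusted p = 7.42e-05), with 2.83, 2.28 and 8.44 CPM in CD31+ cells. The log2 fold changes in edgeR were -4.25 for Gfap (SE 1.10, adjusted p = 0.00398), -2.58 for S100b (SE 0.54, adjusted p = 0.000715), -2.59 for Fabp7 (SE 0.86, adjusted p = 0.0206) and -2.56 for Cdh19 (SE 0.77, adjusted p = 0.0113). Gfra3 stood at 1.48, 0 and 1.90 CPM in CD31+ cells and did not pass (log2 fold change -2.54, SE 1.02, edgeR adjusted p = 0.0524, range 0.000917 to 0.115). The call of Cdh19 was lost without CD31+ library 1 (0.0520) and that of Fabp7 without CD31+ library 3 (0.0753). These CD31+ and CD31- groups also differed in epithelial markers, with summed levels of 249 to 511 CPM in CD31+ cells and 5219 to 9059 CPM in CD31- cells of the small intestine, and 153 to 917 CPM in CD31+ cells and 1467 to 5587 CPM in CD31- cells of the colon. Their part in the differences of the 6 genes was not tested. The comparisons by CD31 and by Rspo3 share the CD31- Rspo3- libraries.

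Within Rspo3+ cells CD31 made no detectable difference to the 6 genes. In the colon 0 of 6 passed, where 18.2% of tested genes were lower and 14.9% higher in CD31+ cells, and in the small intestine 0 of 6 passed, where 19.6% were lower and 16.9% higher. The count was also 0 at an unadjusted p under 0.05, and with limma voom, limma on log2(TPM + 1) and DESeq2. Leaving out colon CD31- Rspo3+ library 2 gave 1 call. The log2 fold changes lay between -1.32 for Erbb3 in the colon and 1.42 for Gfra3 in the small intestine, with an SE of 0.73 and 1.20 for these.

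Between tissues, Erbb3 was the only one of the 6 genes that passed in CD31- Rspo3- cells. It was lower in the colon, at 27.2 ± 8.47 CPM in colon cells and 125.7 ± 58.3 CPM in small intestinal cells (SD, n = 3 each), a log2 fold change of -2.21 (SE 0.70, edgeR adjusted p = 0.0346), where 8.81% of tested genes were lower and 8.79% higher. The call of Erbb3 was lost without colon library 1, 2 or 3 or small intestinal library 1 or 3, with an adjusted p of 0.0541 to 0.167. S100b, Gfap, Gfra3 and Cdh19 had higher means in the colon, with log2 fold changes of 0.70, 1.53, 1.32 and 1.08, and Fabp7 a lower one, with -1.25. None of these 5 passed in edgeR (adjusted p of 0.293 to 0.387). With only the compared libraries, edgeR called 4 of 6 genes, namely Erbb3, Fabp7 (adjusted p = 0.00794), Gfap (adjusted p = 0.0225) and Gfra3 (adjusted p = 0.0240). Limma voom called 4 of 6 genes and limma on log2(TPM + 1) called 3, while DESeq2 called 1. The shares of all tested genes given here are those of the fit to all 24 libraries, not of these alternatives.

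In the other populations 0 of 6 genes passed between colon and small intestine. Among CD31- Rspo3+ cells, where 3.4% of tested genes were lower and 3.62% higher, 2 genes had an unadjusted p under 0.05, S100b with a log2 fold change of 1.14 and Fabp7 with -2.36. Among CD31+ Rspo3- cells, where 1.71% were lower and 2.72% higher, 1 gene did, Gfap with 2.40. Among CD31+ Rspo3+ cells, where 3.52% were lower and 2.83% higher, 1 gene did, Fabp7 with -1.96. Limma voom, limma on log2(TPM + 1) and DESeq2 gave 0 of 6 in each of these populations.

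The size of the Rspo3 difference among CD31- cells was set against itself between tissues. The log2 fold change of Erbb3 was 3.42 higher in the colon than in the small intestine (SE 1.01, edgeR adjusted p = 0.0405), where 4.91% of tested genes had a higher and 3.48% a lower value. This was 1 of 6 genes, and the adjusted p of the other 5 was 0.644 to 1. The call was not kept without colon Rspo3+ library 3, at a difference of 1.82 and an adjusted p of 0.310, or without colon Rspo3- library 2 or 3, small intestinal Rspo3- library 1 or 3, or small intestinal Rspo3+ library 1, 2 or 3, at 0.0545 to 0.131. Among CD31+ cells 0 of 6 genes differed in this way, where 1.29% of tested genes were lower and 0.64% higher, with 0 at an unadjusted p under 0.05 and 0 with limma voom, limma on log2(TPM + 1) and DESeq2. The CD31 difference within Rspo3- cells did not differ between tissues for any of the 6 genes in edgeR, where 1.81% were lower and 3.18% higher. Erbb3 was the 1 gene with an unadjusted p under 0.05, and limma on log2(TPM + 1) called 1 gene, limma voom 0 and DESeq2 0.

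Within a library the glia genes can be set against each other. In CD31- Rspo3- cells the ratio of Fabp7 counts to S100b counts was 0.286, 0.275 and 0.268 in colon libraries, against 0.970, 1.17 and 1.07 in small intestinal libraries. The ratio of Erbb3 to S100b counts was 1.77, 1.497 and 1.31 in colon libraries, against 9.17, 7.54 and 18.7 in small intestinal libraries. Neither ratio overlapped between tissues, and the two-sided exact permutation p was 0.1 for each, the smallest that 3 against 3 libraries allow, and 0.25 after Benjamini-Hochberg adjustment over 5 ratios. The ratios of Gfap, Gfra3 and Cdh19 to S100b averaged 1.74 ± 0.565, 0.938 ± 0.320 and 2.55 ± 0.925 in the colon. Those of the small intestine averaged 1.02 ± 0.313, 0.598 ± 0.0992 and 2.03 ± 0.400 (SD, n = 3), with exact permutation p of 0.2, 0.3 and 0.4.

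Erbb3, which is also made by gut epithelium, was set beside Epcam, which encodes an epithelial adhesion protein. In CD31- Rspo3- cells the ratio of Erbb3 to Epcam counts averaged 0.151 ± 0.103 in the colon and 0.158 ± 0.0369 in the small intestine (SD, n = 3). The ratio of Erbb3 to Sox10 counts averaged 1.18 ± 0.259 in the colon and 7.94 ± 3.90 in the small intestine. Sox10 encodes the transcription factor that defines neural crest glia. Colon CD31- Rspo3+ library 3, with the most Epcam of its group, had an Erbb3 to Sox10 ratio of 3.76, against 2.75 and 1.5 in the other libraries of its group. The Erbb3 to Epcam ratio of library 3 was 0.0639, against 0.210 and 0.141 in the other libraries of its group. How much of the Erbb3 RNA came from either cell type was not tested.

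**Figure D3:**
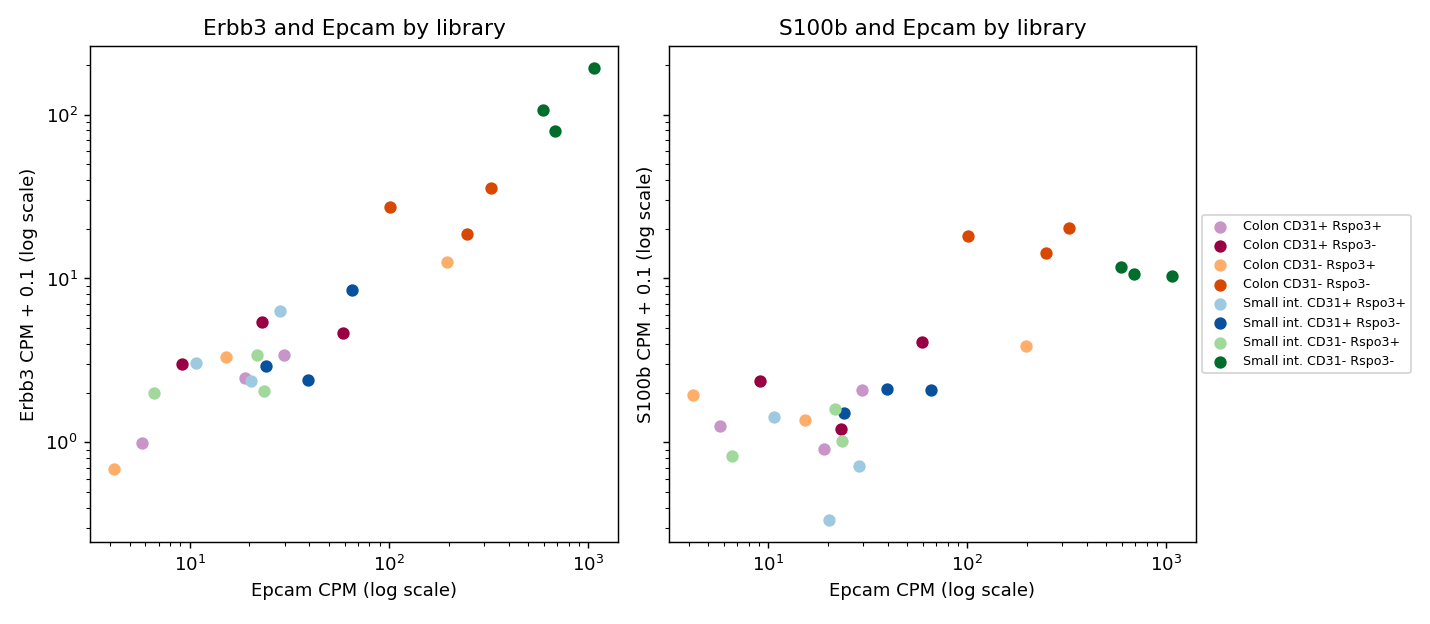
Erbb3 (left) and S100b (right) against Epcam in every library, all in CPM on log scales with 0.1 added to the vertical axis, coloured by group. The 3 CD31- Rspo3- libraries of the small intestine have the most Epcam (594 to 1069 CPM) and the most Erbb3 (79.2 to 191 CPM), while their S100b (10.2 to 11.7 CPM) is below that of the matching colon libraries (14.3 to 20.1 CPM).

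Other glia and Schwann cell genes were read from a list of 18, of which 17 passed the filter. In CD31- cells of the colon, 10 of 17 were lower and 1 was higher in Rspo3+ cells, with a median log2 fold change of -3.11, against 0.00 over all tested genes. Of all tested genes, 4.34% were lower and 4.8% higher there, and 1 of 17 higher lies near that share. The log2 fold changes were -4.25 for Gpr37l1, a glial receptor gene (SE 0.68, edgeR adjusted p = 0.000494), and -3.89 for Sox10 (SE 0.64, adjusted p = 0.000583). Without colon Rspo3+ library 1 or library 2, 6 of the list were lower. In CD31- cells of the small intestine, 8 of 17 were lower and 1 was higher, with a median of -1.73, against 0.11 over all tested genes. The shares of all tested genes were 14.3% lower and 16.1% higher, and 1 of 17 higher lies below the latter. The log2 fold changes there were -4.66 for Sox10 (SE 0.67, edgeR adjusted p = 2.91e-05) and -3.96 for Gpr37l1 (SE 0.67, adjusted p = 0.000167). The summed level of the 18 genes was not lower in these Rspo3+ cells, at 805 to 976 CPM against 499 to 604 CPM in Rspo3- cells. In the CD31- colon it was 786 to 1297 CPM in Rspo3+ cells and 667 to 1132 CPM in Rspo3- cells.

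The gene of this list that was higher in Rspo3+ cells was Entpd2, which encodes an ectonucleotidase that breaks down ATP outside cells. It averaged 755 ± 210 CPM in Rspo3+ cells and 248 ± 58.1 CPM in Rspo3- cells of the colon (SD, n = 3 each; log2 fold change 1.61, SE 0.45, edgeR adjusted p = 0.0305). Small intestinal Entpd2 averaged 449 ± 18.3 CPM in Rspo3+ cells and 105.5 ± 12.1 CPM in Rspo3- cells (log2 fold change 2.09, SE 0.46, edgeR adjusted p = 0.00173). Summed fibroblast markers were also higher in Rspo3+ cells, at 34250 to 62990 CPM in Rspo3+ cells and 26330 to 31880 CPM in Rspo3- cells of the colon. Their small intestinal sums were 92010 to 104500 CPM in Rspo3+ cells and 15360 to 21290 CPM in Rspo3- cells. Their part in the Entpd2 level was not tested. The colon call of Entpd2 was lost on leaving out Rspo3+ library 1 or 2 or any of the 3 Rspo3- libraries.

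**Figure D4:**
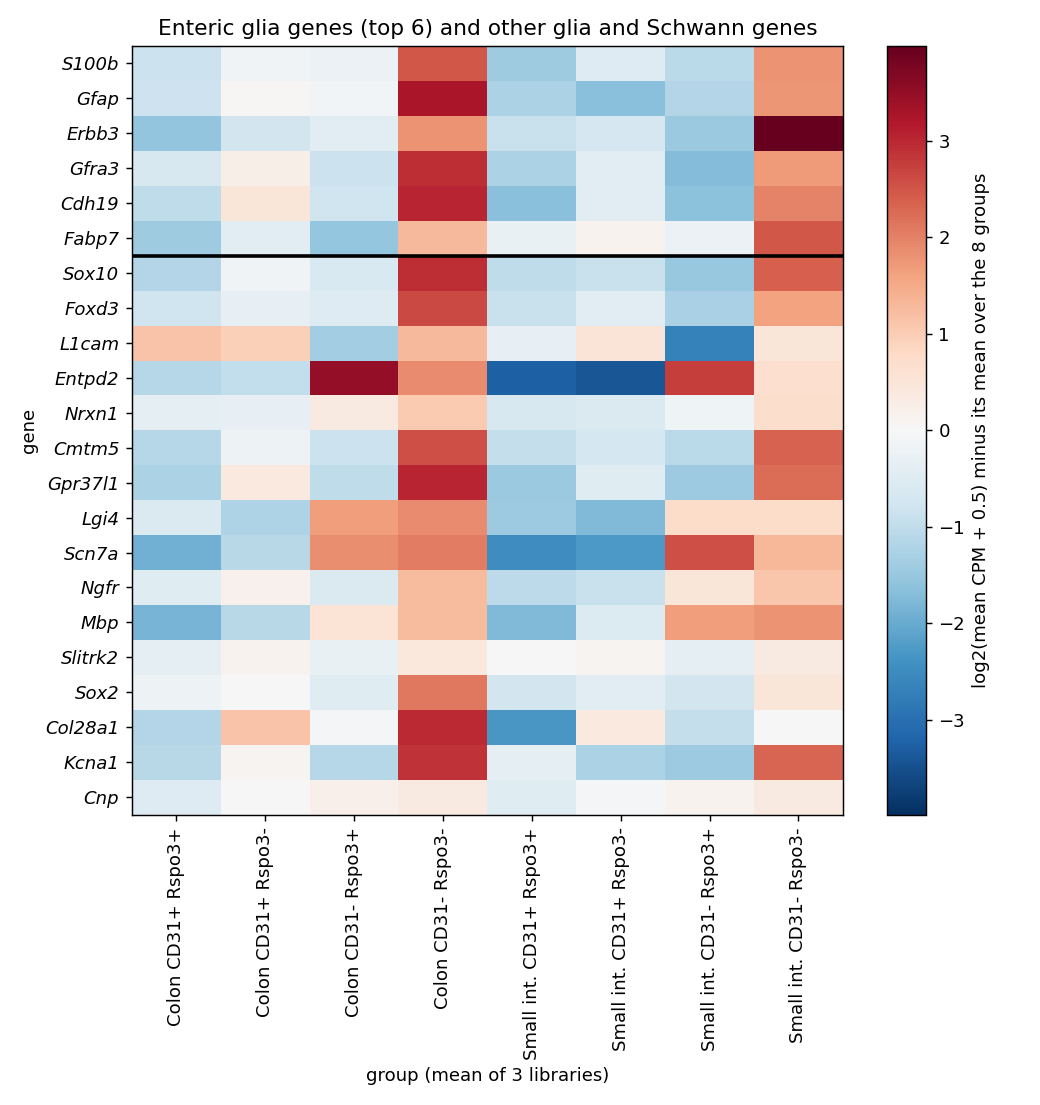
Level of the 6 enteric glia genes (above the line) and other glia and Schwann cell genes (below it) in the 8 groups, as log2(mean CPM + 0.5) of 3 libraries minus the mean of that value over the groups, gene by gene. The CD31- Rspo3- columns are above the mean for each of the 6 genes, while Entpd2 is highest in the CD31- Rspo3+ columns (755 CPM in colon, 449 CPM in small intestine).

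The genes around the ErbB3 receptor were read from a list of 7 other ErbB receptors and neuregulins, of which 5 passed the filter. The list is too short to show whether the family moved together. In Rspo3+ CD31- cells, 4.34% of all tested genes were lower and 4.8% higher in the colon. These shares were 14.3% and 16.1% in the small intestine. Nrg1, which encodes a ligand of ErbB3, averaged 2.70 ± 0.878 CPM in Rspo3+ cells and 40.02 ± 9.25 CPM in Rspo3- cells of the CD31- colon (SD, n = 3 each; log2 fold change -3.88, SE 0.60, edgeR adjusted p = 0.000362). In the CD31- small intestine Nrg1 averaged 2.09 ± 0.894 CPM in Rspo3+ cells and 10.4 ± 1.49 CPM in Rspo3- cells (log2 fold change -2.31, SE 0.57, edgeR adjusted p = 0.00385). In the colon 2 of 5 were lower, with Nrg2, another neuregulin gene, falling by 2.14 (SE 0.63, edgeR adjusted p = 0.0383), and Egfr was at 1.18 (SE 0.67, edgeR adjusted p = 0.311). Of the same 5 genes, 2 were lower and 1 was higher in the small intestine. Erbb2, the gene of the partner receptor, fell by 1.07 (SE 0.27, edgeR adjusted p = 0.00513), and Egfr, the EGF receptor gene, was higher by 1.82 (SE 0.68, edgeR adjusted p = 0.0480). The Egfr call was lost on leaving out any 1 of the 6 small intestinal CD31- libraries, and in the colon 1 of the 2 lower calls was lost without Rspo3+ library 1 or 2 or any Rspo3- library. Erbb4 and Nrg3 did not pass the filter on low counts.

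Of 8 other GDNF family ligands and receptors, 7 passed the filter and 2 were lower in Rspo3+ CD31- cells of each tissue. This list too is short, and 4.34% of all tested genes were lower in the colon and 14.3% in the small intestine. Gdnf, the ligand gene that names the family, averaged 0.781 ± 0.422 CPM in Rspo3+ cells and 14.7 ± 1.53 CPM in Rspo3- cells of the colon (SD, n = 3 each; log2 fold change -4.201, SE 0.73, edgeR adjusted p = 0.000947). Small intestinal Gdnf averaged 1.55 ± 0.473 CPM in Rspo3+ cells and 8.99 ± 1.78 CPM in Rspo3- cells (log2 fold change -2.53, SE 0.67, edgeR adjusted p = 0.00656). Gfra1, which encodes the GDNF co-receptor, fell by 3.53 in the colon (SE 0.74, edgeR adjusted p = 0.00414) and by 2.95 in the small intestine (SE 0.72, edgeR adjusted p = 0.00360). Ret, the gene of the shared signalling receptor, did not pass, at -1.53 (SE 0.81, edgeR adjusted p = 0.271) in the colon and -1.83 (SE 0.83, edgeR adjusted p = 0.103) in the small intestine. Artn, which encodes the ligand of Gfra3, averaged 27.0 ± 8.04 CPM in Rspo3+ cells and 23.1 ± 2.43 CPM in Rspo3- cells of the colon, and 12.6 ± 2.18 CPM in Rspo3+ cells and 9.80 ± 3.85 CPM in Rspo3- cells of the small intestine.

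Within Rspo3- cells, 11 of the 17 other glia genes were lower in CD31+ cells of the colon and 12 in those of the small intestine, and 0 were higher in either. Of the ErbB list, 4 of 5 were lower in CD31+ cells of each tissue, namely Egfr, Erbb2, Nrg1 and Nrg2. Of the GDNF list, 3 of 7 were lower in each tissue, namely Gdnf, Gfra1 and Gfra2, the gene of the neurturin co-receptor. Nrg2 had the lowest log2 fold change of these in the small intestine, at -5.06 (SE 0.82, edgeR adjusted p = 4.51e-05). Within Rspo3+ cells, 5 of the same 17 glia genes were lower in CD31+ colon cells and 7 in CD31+ small intestinal cells. In each tissue 1 was higher. The ErbB list had 2 of 5 lower in the colon and 4 of 5 in the small intestine. The GDNF list had 3 of 7 lower in each. Of all tested genes, 16.4% and 21.6% were lower in colon and small intestine within Rspo3- cells, and 18.2% and 19.6% within Rspo3+ cells. The shares that were higher were 16.1% and 20.1% within Rspo3- cells, and 14.9% and 16.9% within Rspo3+ cells.

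Other genes of the members' families were counted in lists of 5 to 7 genes, too short to show whether a family moved together. Of all tested genes, 4.34% were lower and 4.8% higher in Rspo3+ CD31- cells of the colon. Those shares were 14.3% and 16.1% in the small intestine. In CD31- cells of the colon, 2 of 5 other intermediate filament genes were lower in Rspo3+ cells and 0 higher. Small intestinal cells had 1 lower and 1 higher. Nes, which encodes nestin, a filament protein of progenitors and glia, had log2 fold changes of -2.27 in the colon (SE 0.47, edgeR adjusted p = 0.00381) and -1.91 in the small intestine (SE 0.46, edgeR adjusted p = 0.00330). Des, the muscle filament gene, fell by 1.25 in the colon (SE 0.37, adjusted p = 0.0375), and Vim, the mesenchymal filament gene, was higher by 0.84 in the small intestine (SE 0.23, adjusted p = 0.00738), both in edgeR. Vim in the colon (0.56, adjusted p = 0.131) and Prph in the small intestine (-2.59, adjusted p = 0.140) did not pass. The count lower in the colon was 1 in 6 of 13 alternatives, among them those without Rspo3- library 1 or 2 or Rspo3+ library 1, 2 or 3.

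Of 6 other fatty acid binding protein genes, 2 were lower and 1 higher in Rspo3+ CD31- cells of the colon, and 3 were lower and 1 higher in those of the small intestine. Fabp1 and Fabp2, which encode enterocyte proteins, had log2 fold changes of -5.93 and -6.24 in the small intestine (SE 1.19 each, edgeR adjusted p = 0.000760 and 0.000483), and Fabp1 fell by 7.29 in the colon (SE 1.88, adjusted p = 0.0156). Fabp4, a gene of adipocytes and capillary endothelium, was higher by 1.38 in the colon (SE 0.41, adjusted p = 0.0385) and by 1.58 in the small intestine (SE 0.42, adjusted p = 0.00681). Fabp5 fell by 1.48 in the colon (SE 0.44, adjusted p = 0.0398), all in edgeR. In the colon the count lower was 0 without Rspo3+ library 1 or 2 or Rspo3- library 1 and 1 without Rspo3- library 2 or 3. The 1 higher call was lost without Rspo3+ library 3 or any of the 3 Rspo3- libraries.

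Of 7 other S100 genes, 1 was higher in Rspo3+ CD31- cells of the colon and 3 in those of the small intestine, and 0 were lower in either. S100a10 was higher by 0.78 in the colon (SE 0.20, edgeR adjusted p = 0.0186). S100a16, S100a13 and S100a11 were higher by 0.88, 0.85 and 0.86 in the small intestine (edgeR adjusted p = 0.00186, 0.00265 and 0.0135). In the colon S100a1 (-0.53, adjusted p = 0.107) and S100a11 (0.32, adjusted p = 0.496) did not pass. The count higher was 0 without Rspo3+ library 3 in the small intestine, and 0 without Rspo3+ library 2 or Rspo3- library 2 in the colon.

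Of 6 other cadherin genes, 2 were lower and 1 higher in Rspo3+ CD31- cells of the colon, and 3 were lower and 2 higher in those of the small intestine. Cdh2, the gene of the neural cadherin, had log2 fold changes of -3.88 in the colon (SE 0.82, edgeR adjusted p = 0.00445) and -3.25 in the small intestine (SE 0.79, edgeR adjusted p = 0.00373). Cdh6 fell by 3.85 in the colon (SE 0.51, edgeR adjusted p = 6.62e-05). Cdh1, the epithelial cadherin gene, had a log2 fold change of -5.501 in the small intestine (SE 1.21, edgeR adjusted p = 0.00166). Cdh5, the endothelial cadherin gene, was higher by 2.68 in the colon (SE 0.66, adjusted p = 0.0122) and by 3.18 in the small intestine (SE 0.79, adjusted p = 0.00373), both in edgeR. The count higher was 0 in the colon without Rspo3+ library 3 or Rspo3- library 2, and 1 in the small intestine without Rspo3+ library 3 or Rspo3- library 2 or 3.

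The genes whose pattern over the 8 group means lay closest to that of the 6 genes were sought by Pearson's r with the mean of their standardised log2 CPM values, over 13608 other tested genes with a mean of at least 5 CPM in their highest group. The highest r values were 0.997 for Cmtm5, 0.994 for Kcna6, 0.993 for Sox10, 0.989 for Gjc3 and 0.988 for Gpr37l1. Ano5 (0.987), Lama1 (0.981), Foxd3 (0.980), Sostdc1 (0.979) and Rasgef1c (0.978) followed. Cmtm5 averaged 11.5 CPM in colon CD31- Rspo3- cells and 9.85 CPM in small intestinal ones, and 0.414 to 1.26 CPM elsewhere. Kcna6, a potassium channel gene, averaged 17.0 CPM in colon CD31- Rspo3- cells and 10.3 CPM in small intestinal ones. Each of the 6 genes had an r with the mean of the other 5 of 0.975 for S100b, 0.962 for Cdh19, 0.949 for Gfra3, 0.908 for Gfap, 0.888 for Erbb3 and 0.786 for Fabp7. These are descriptions over 8 points that share libraries and normalization, and the genes with the lowest r were those with higher levels in the small intestine.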

How the data were processed

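Per the labels' protocols, Qiagen RNeasy columns gave the RNA and SMART-Seq v4, which does not mark strand, the cDNA. Reads were processed by Salmon (1.3.0) and R (4.0.1) for build mm10, per the submitters' processing notes. How transcripts were summed, and under which annotation release, was not given in those notes or the labels. The authors deposited estimated counts per gene as whole numbers, so that no rounding was needed, and log2(TPM + 1) values. Columns were assigned to groups by the tissue, CD31 and Rspo3 signs in their names.

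Symbols came from GENCODE M21, which held 54166 of 54418 identifiers (99.5%). Genes were filtered with filterByExpr (minimum count 10, minimum total 15), scaled by TMM and tested with edgeR 4.0.16 in R 4.3.3, by the quasi-likelihood test in 1 model over all 24 libraries. Benjamini-Hochberg adjustment ran over all 19050 genes tested, and 0.05 was the threshold. The SE of a log2 fold change is not an output of edgeR. It was derived as the absolute unshrunken log2 fold change divided by the square root of the F statistic. The log2 fold changes printed beside it are the shrunken ones of edgeR. The script was tested on simulated data. Alternatives were DESeq2 size factors, no filter, limma 3.58.1 (voom, and a trend on log2(TPM + 1)), DESeq2 1.42.0, only the compared libraries, and leaving out each library.

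The named genes were the 6 glia genes, identity checks, the ErbB and GDNF family genes called in CD31- comparisons, the 3 genes with the smallest adjusted p of each other list in the Rspo3 comparisons of CD31- cells, and the 10 genes of most similar pattern. The genes, the lists and the motifs were chosen with earlier results of these data known. Ratios, Artn levels, Lgr5, Olfm4 and the ErbB and GDNF genes under CD31 were named after their values were seen. Exact permutation tests were used for ratios. Some genes that this rule names are not reported here.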

Additional observations from a re-analysis of the deposited data

Results flagged for a closer look

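The Rspo3 difference of Erbb3 among CD31- cells differed between tissues by 3.42 on the log2 scale, with an SE of 1.01 and an adjusted p of 0.0405 in the edgeR test of the difference itself. It was picked out because this adjusted p was under 0.05, so that value is no separate check. The Rspo3 contrast gave -2.30 in the colon and -5.72 in the small intestine. Colon CD31- Rspo3+ library 3, with 197 CPM of Epcam and 12.6 CPM of Erbb3, was the highest of its group in both. It was also the highest for each of the 6 genes and for Sox10, at 3.35 CPM against 1.17 and 0.394 CPM. Its Rspo3 level was the lowest of the group, at 139 CPM against 234 and 267 CPM. So was its Erbb3 to Epcam ratio, at 0.0639 against 0.210 and 0.141. Without that library the Rspo3 difference of Erbb3 was -3.90 in the colon, and the difference between tissues was 1.82 (edgeR adjusted p = 0.310). Over 19 alternatives the difference between tissues was 1.82 to 4.16, with an adjusted p of 0.00366 to 0.320. The part of epithelial RNA in this difference was not tested.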

How the results depend on the processing

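No paired analysis was possible because the count columns carry no replicate number of the labels. No called change of the 6 genes reversed under the alternatives run. For Rspo3+ against Rspo3- cells, the count of calls was 3 instead of 5 in CD31- colon and 1 instead of 0 in CD31+ colon with only the compared libraries. For colon against small intestine in CD31- Rspo3- cells it was 4 with limma voom, 3 with limma on log2(TPM + 1) and 4 with only the compared libraries, instead of 1. For the tissue difference of the Rspo3 contrast in CD31- cells it was 0 with limma voom, with only the compared libraries and without both libraries that stand apart (an alternative chosen after seeing the data), instead of 1. For the tissue difference of the CD31 contrast it was 1 with limma on log2(TPM + 1), instead of 0. The causes were not tested. Shares of all tested genes are given only for the fit to all 24 libraries. Leaving out each library gave 4 to 6 calls for Rspo3 in CD31- small intestine, 0 to 1 in CD31+ small intestine, 3 to 6 in CD31- colon and 0 in CD31+ colon. It gave 4 to 5 for CD31 in Rspo3- small intestine, 2 to 5 in Rspo3- colon, 0 in Rspo3+ small intestine and 0 to 1 in Rspo3+ colon. It gave 0 to 1 between tissues in CD31- Rspo3- cells, 0 to 1 for the tissue difference of the Rspo3 contrast in CD31- cells and 0 in the remaining comparisons. Neuron markers lower in CD31- Rspo3+ cells numbered 2 to 12 in the small intestine and 1 to 5 in the colon over the alternatives, and epithelial markers 9 to 11 and 0 to 9. GDNF family genes lower in the small intestine numbered 2 to 4.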

Other observations

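Other cell types were described by their marker lists in the Rspo3 comparisons of CD31- cells. Every count below stands beside the share of all tested genes. In Rspo3+ cells that share was 4.34% lower and 4.8% higher in the colon, and 14.3% lower and 16.1% higher in the small intestine. Small intestinal counts of 1 or 2 in a list lie near or below these shares. Of 11 endothelial markers, 9 were higher in Rspo3+ cells of the colon and 9 were higher and 1 lower in those of the small intestine. Tek and Lyve1 led in both tissues, with Tie1 in the colon and Prox1, the lymphatic transcription factor gene, in the small intestine, where Lyve1 was higher by 4.30 (SE 0.55, edgeR adjusted p = 8.43e-06). In the colon 5 endothelial markers were higher without Rspo3- library 2, 6 without Rspo3+ library 3, and 2 in edgeR with only the compared libraries. Of 8 fibroblast markers, 2 were higher in the colon, Cd34 and Grem1, and 7 in the small intestine, led by Cd34, Grem1 and Lum. Dcn in the colon did not pass (log2 fold change 1.67, edgeR adjusted p = 0.0655). Grem1, which encodes a secreted BMP antagonist, was higher by 3.58 in the colon (SE 0.69, edgeR adjusted p = 0.00242) and by 4.21 in the small intestine (SE 0.72, edgeR adjusted p = 0.000169).

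Of 8 smooth muscle markers, all 8 were lower in Rspo3+ cells of the colon, led by Mylk, Lmod1 and Tagln. In the small intestine 1 was higher, Smtn, a call lost without Rspo3+ library 3, while Mylk (-0.51, edgeR adjusted p = 0.0549) and Lmod1 (-0.76, edgeR adjusted p = 0.106) did not pass. No smooth muscle marker was lower there, with 1 to 3 lower in 7 of 12 alternatives, among them 1 without Rspo3+ library 1 or 3 or Rspo3- library 2, and 3 in edgeR with only the compared libraries. Of 6 pericyte markers, 4 were lower in the colon, led by Rgs5, Notch3 and Cspg4 (2 without Rspo3+ library 1 or Rspo3- library 2), and 3 in the small intestine, Notch3, Cspg4 and Higd1b. Of 5 markers of interstitial cells of Cajal, 2 were lower in the colon, Ano1 and Etv1, with Kit at -2.41 (edgeR adjusted p = 0.0515). In the small intestine 1 was higher, Gucy1a1, with Thbs4 at 1.46 (edgeR adjusted p = 0.181) and Etv1 at -0.54 (edgeR adjusted p = 0.282). Of 6 mesothelial markers, 5 were lower in the small intestine, led by Wt1, Upk1b and Lrrn4, and 0 in the colon, where Upk1b (-3.77, edgeR adjusted p = 0.0851) and Upk3b (-5.22, edgeR adjusted p = 0.139) did not pass. Msln was at 0 in the 3 colon Rspo3+ libraries and averaged 1.41 CPM in the Rspo3- libraries (edgeR adjusted p = 0.0592). Wt1 and Lrrn4 were at 0 in the 3 small intestinal Rspo3+ libraries. Without colon Rspo3- library 1, 1 mesothelial marker was lower there.

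Of 10 immune markers, 8 were higher in Rspo3+ cells of the colon, led by Laptm5, Lyz2 and Ptprc, and 0 were without Rspo3+ library 3. In the small intestine 2 were lower, Cd74 and Itgam (0 when Rspo3+ library 1 was left out, and 1 when Rspo3+ library 3 or Rspo3- library 2 or 3 was), with Lyz2 at 0.89 (edgeR adjusted p = 0.462). Of 15 enteric neuron markers, Stmn2, Nos1 and Hand2 were lower in the colon, and Uchl1 and Stmn2 were lower in the small intestine. Uchl1 fell by 3.21 there (SE 0.54, edgeR adjusted p = 0.000145). Of the 14 epithelial markers, Krt20 was lower in the colon (-3.60, SE 0.96, edgeR adjusted p = 0.0221), while Alpi (-3.62, edgeR adjusted p = 0.0596) and Vil1 (-2.01, edgeR adjusted p = 0.149) did not pass. Vil1, Krt20 and Alpi led in the small intestine, and the 1 marker that was higher there was the stem cell receptor gene Lgr5 (3.92, SE 1.14, edgeR adjusted p = 0.00944).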
